A study of Rattus norvegicus with 10 samples.

Results

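Fatty acid synthesis from citrate was followed in the kidney only as RNA of 4 genes, and neither synthesis nor protein was measured. The genes are Srebf1, which encodes the transcription factor SREBP-1, and Acly, Acaca and Fasn, which encode the pathway's enzymes. They were chosen by Ensembl identifier and kept where the count table places them on rat chromosome 10, which holds for 4 of 4 identifiers, out of 32623 genes in the table. Each library holds polyadenylated RNA from the whole kidney of a male rat of the outbred Sprague-Dawley strain. The 5 control animals drank freely and the 5 dehydrated animals had no water for 72 hours (3 days). The labels name no other treatment, and the sources used here do not state age, body weight or food intake. The purpose stated for the series is to find genes of osmoregulation.

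Cells make fatty acids from acetyl-CoA. ATP citrate lyase, the product of Acly, cleaves cytosolic citrate to acetyl-CoA, acetyl-CoA carboxylase 1 (Acaca) converts it to malonyl-CoA in the committed step, and fatty acid synthase (Fasn), a large multifunctional enzyme, builds palmitate from both. SREBP-1 is made as a precursor held in the endoplasmic reticulum membrane, and its released amino-terminal part activates the genes of these enzymes. In liver, where the pathway is best known, insulin and feeding raise SREBP-1c. The kidney takes up and oxidises much of the fatty acid it uses, and also makes some.

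All 4 genes fell after water restriction, Fasn 3.58-fold, Srebf1 2.07-fold, Acaca 1.90-fold and Acly 1.45-fold. Each passed edgeR's quasi-likelihood test with an adjusted p below 0.05 over all 15047 tested genes, of which 8.47% passed in either direction and 3.77% passed as lower. For all 4, the highest dehydrated kidney was below the lowest control kidney, a separation found for 3.48% of tested genes. The median log2 fold change was -0.99 over the 4 genes, against -0.0047 over all tested genes and -0.45 over the genes called lower. The genes were picked with earlier results of these data known, so the shares place them in the series and test nothing. With both libraries numbered 6 exchanged between the groups, 0 of the 4 genes were called by edgeR, DESeq2 or limma voom, and 4 had an unadjusted edgeR p below 0.05. The loss was not limited to them: over all 15047 genes edgeR called 0 after the exchange, against 1275 with titles as given. An unadjusted edgeR p below 0.05 was then found for 1654. Over the same 15047 genes limma voom called 0, against 1240 with titles as given. DESeq2, run on all 21311 genes with any count, called 65, against 1667 with titles as given. In whole tissue, fewer cells of a type and less RNA per cell cannot be told apart.

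Libraries held 29454213 to 35898689 assigned fragments, and counts of the 4 genes ran from 645 (Acaca) to 13609 (Fasn) per library, so that counting error reached at most 3.94% of a value. Levels are given in CPM, counts divided by library size and scaled by edgeR's TMM factors, and, where genes are compared with each other, in RPKM, the same value per kilobase of summed exon length. Groups follow the sample titles. Replicate 6 of each group has a library name with the letter that the other group's names bear. Fold changes and the ratios between enzymes are therefore also given without these 2 libraries. Ratios to Srebf1, levels per kilobase, ranks, likeness, spread and neighbours are not given without both. With titles as given, control replicate 6 was above every dehydrated kidney and dehydrated replicate 6 below every control kidney for all 4 genes. This follows from the separation of the titled groups given above and is no separate check of the titles. Markers of kidney cell types and of adipocytes were not analysed here, because the tables used do not pair Ensembl identifiers with symbols, so the tissue label was not checked either.

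Srebf1 (ENSRNOG00000003463) lies on the minus strand of chromosome 10 at 46570996 to 46593009 in Rnor_6.0, with 20 distinct exon ranges and 4435 bp of summed exon sequence. Its span of 22014 bp compares with 22013 bp for the RefSeq gene Srebf1 in assembly GRCr8. RefSeq gives it separate transcription starts 10154 bases apart. The proteins of its alternative first exons are known as SREBP-1a and SREBP-1c, and a count per gene holds both. The bases just before each annotated start are shown to compare both with the start of Acly, and which start the kidney transcripts use was not measured. They are 250 bases long, on the minus strand of GRCr8, at chr10:45529165-45529414 (upstream start) and chr10:45519011-45519260 (downstream start), with searched motifs in capitals.
Srebf1 upstream start: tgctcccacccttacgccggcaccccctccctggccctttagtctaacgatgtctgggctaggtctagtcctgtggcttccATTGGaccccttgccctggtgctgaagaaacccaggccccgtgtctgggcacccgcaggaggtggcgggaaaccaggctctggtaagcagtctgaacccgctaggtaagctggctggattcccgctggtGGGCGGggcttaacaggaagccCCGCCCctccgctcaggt
Srebf1 downstream start: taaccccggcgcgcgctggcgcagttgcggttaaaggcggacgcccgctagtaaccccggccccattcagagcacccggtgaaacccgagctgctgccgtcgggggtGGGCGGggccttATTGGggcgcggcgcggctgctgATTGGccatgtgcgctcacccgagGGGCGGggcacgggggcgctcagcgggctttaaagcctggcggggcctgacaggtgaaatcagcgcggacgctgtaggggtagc

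Motifs were searched on both strands as the E-box CACGTG, the sterol element core CACNCCAC, the NF-Y box CCAAT and the GC box GGGCGG, none of which overlapped another in these windows. The upstream window held 1 NF-Y box and 2 GC boxes, and the downstream window 2 NF-Y boxes and 2 GC boxes. Neither held an E-box or a sterol element core of these letters. Among 33469 RefSeq windows of this length, 34.0% held an NF-Y box, 30.5% a GC box, 5.59% an E-box and 4.89% a sterol element core. A match is a description of the letters and does not show binding.

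Srebf1 stood at 112, 91.2, 95.9, 134 and 84.1 CPM in control replicates 2, 3, 4, 5 and 6. In dehydrated replicates 1, 2, 4, 5 and 6 it stood at 47.8, 43.4, 65.7, 49.8 and 43.9 CPM. The groups did not overlap: the lowest control kidney had 1.28 times the highest dehydrated one, and dehydrated replicate 4 was high in its group. The means were 104 ± 20.1 and 50.1 ± 9.13 CPM (SD, n = 5), and edgeR gave a log2 fold change of -1.05 (SE 0.14, 95% interval -1.34 to -0.76, edgeR adjusted p = 0.00051). Without both libraries numbered 6 it was -1.07 (edgeR adjusted p = 0.0026). The authors' deposited table gives -1.05 (SE 0.14).

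Acly (ENSRNOG00000016924) lies on the minus strand at 88392248 to 88442845 of chromosome 10 in Rnor_6.0, with 34 exon ranges and 4327 bp of exon sequence in a span of 50598 bp (52204 bp for RefSeq's Acly in GRCr8). Its RefSeq start region is shown for comparison with Srebf1, as the 250 bases before the start at chr10:85963632-85963881 (GRCr8, minus strand), with motifs in capitals.
Acly start: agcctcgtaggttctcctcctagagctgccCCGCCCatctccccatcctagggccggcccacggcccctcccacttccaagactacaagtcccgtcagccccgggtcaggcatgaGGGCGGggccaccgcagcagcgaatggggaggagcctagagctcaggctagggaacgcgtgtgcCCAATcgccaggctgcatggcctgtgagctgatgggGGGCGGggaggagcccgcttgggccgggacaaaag

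The Acly window held 1 NF-Y box and 3 GC boxes, and none of the other searched motifs. The 3 windows had 64.0% to 70.4% G and C, against a median of 51.2% over all windows.

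Acly was at 237, 197, 240.4, 158 and 182 CPM in control replicates 2, 3, 4, 5 and 6. It was at 141, 152, 131, 136 and 143 CPM in dehydrated replicates 1, 2, 4, 5 and 6. The dehydrated kidneys sat close together, and the lowest control kidney, replicate 5, had only 1.04 times the level of the highest dehydrated kidney, replicate 2. The mean fell from 203 ± 35.7 to 140.4 ± 7.79 CPM (SD, n = 5), with a log2 fold change of -0.53 (SE 0.10, 95% interval -0.75 to -0.31, edgeR adjusted p = 0.0058). Without both libraries numbered 6 the log2 fold change was -0.58 (edgeR adjusted p = 0.017). The authors' deposited table gives -0.53 (SE 0.11).

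Acaca (ENSRNOG00000034013), on the plus strand at 71536533 to 71719910, has the longest genomic span of the 4 genes, 183378 bp (262262 bp for RefSeq's Acaca in GRCr8), with 67 exon ranges and 6796 bp of exon sequence. Control replicates 2, 3, 4, 5 and 6 had 73.0, 44.8, 60.3, 42.1 and 42.2 CPM of it. Dehydrated replicates 1, 2, 4, 5 and 6 had 33.2, 27.7, 28.5, 27.2 and 21.5 CPM. Control replicates 2 and 4 were high, and the groups did not overlap, with 1.27-fold between the nearest kidneys. The mean fell from 52.5 ± 13.7 to 27.6 ± 4.16 CPM (SD, n = 5), which edgeR estimated as -0.93 on the log2 scale (SE 0.16, 95% interval -1.26 to -0.59, edgeR adjusted p = 0.0026). It was -0.92 without both libraries numbered 6 (edgeR adjusted p = 0.0072) and -0.93 (SE 0.15) in the authors' deposited table.

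Fasn (ENSRNOG00000045636), on the minus strand at 109987735 to 110005901, is compact, with 43 exon ranges and 9139 bp of exon sequence in a span of 18167 bp, the same span as RefSeq's Fasn in GRCr8. Its level was 410.0, 196, 322, 166 and 171 CPM in control replicates 2, 3, 4, 5 and 6. In dehydrated replicates 1, 2, 4, 5 and 6 it was 70.5, 67.9, 76.8, 68.3 and 69.8 CPM. The control kidneys spanned 2.47-fold and the dehydrated kidneys 1.13-fold, and the lowest control kidney still had 2.16 times the highest dehydrated level. The mean fell from 253 ± 108 to 70.6 ± 3.59 CPM (SD, n = 5), with a log2 fold change of -1.84 (SE 0.22, 95% interval -2.32 to -1.37, edgeR adjusted p = 0.00031). Without both libraries numbered 6 it was -1.95 (edgeR adjusted p = 0.0017), and the authors' deposited table gives -1.84 (SE 0.28).

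**Figure D1:**
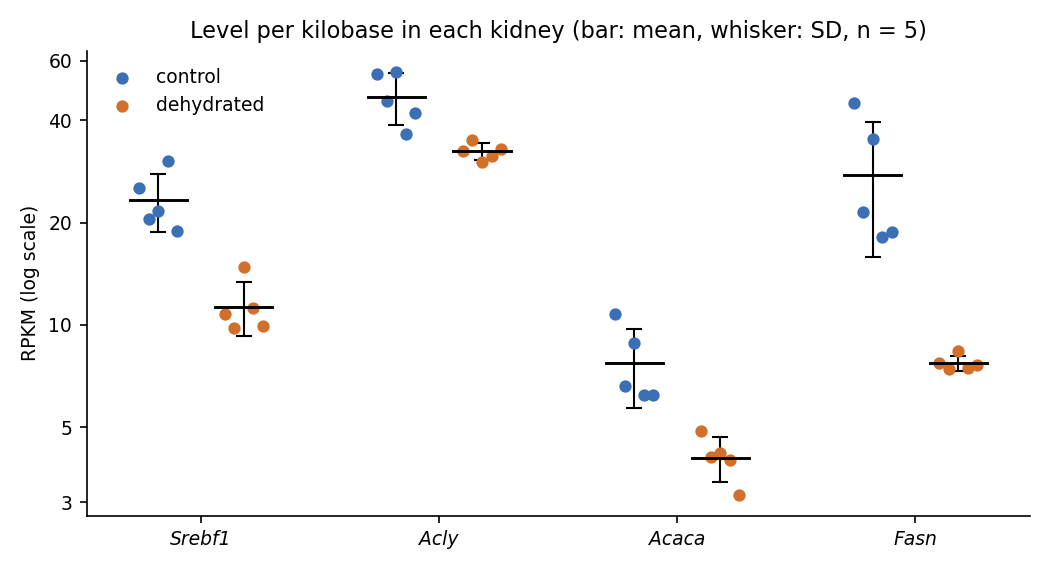
Level of each gene per kilobase of exon (RPKM, log axis) in the 5 control and 5 dehydrated kidneys, with a point per kidney, the mean as a bar and the SD as a whisker. No dehydrated kidney reaches the control range for any of the 4 genes. Srebf1 is above Fasn in 2 of 5 control and 5 of 5 dehydrated kidneys. The change in the ratio of Srebf1 to Fasn did not pass (adjusted exact permutation p = 0.057).

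**Figure D2:**
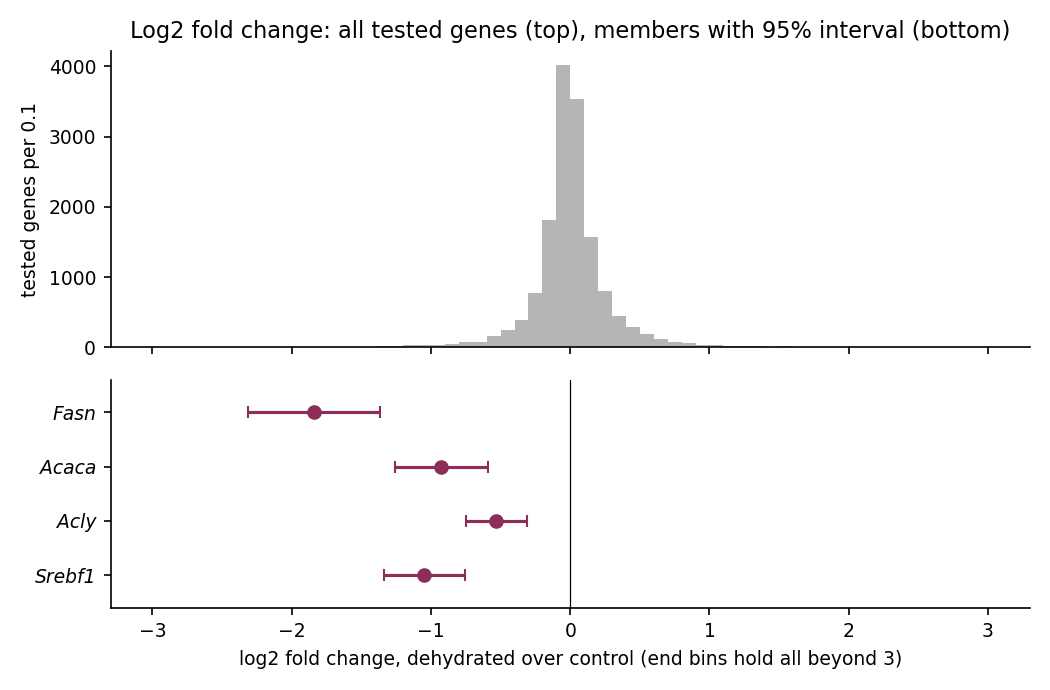
Log2 fold change (dehydrated over control) of all 15047 tested genes as a histogram in bins of 0.1 (top), and of the 4 genes with 95% intervals from edgeR (bottom). The intervals of all 4 genes lie below 0, from -0.53 for Acly to -1.84 for Fasn.

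Among the 15047 tested genes Fasn had the 16th lowest log2 fold change, Srebf1 the 110th, Acaca the 151st and Acly the 460th. Of the 5045 genes with a mean CPM at least that of Acaca, Fasn ranked 6th from the lowest, Srebf1 14th, Acaca 15th and Acly 41st. The 4 genes together held 480 to 833 CPM in control kidneys and 278 to 302 CPM in dehydrated kidneys.

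The size of the fall differed between enzymes. The test was the change in the log2 ratio of the counts of 2 genes within each library, which needs no scaling between libraries (exact two-sided permutation test, 6 pairs, smallest p 0.0079). Folds given with it are differences in mean log2 ratio, and need not match quotients of the edgeR folds above. Fasn fell 2.34-fold more than Acly: the log2 ratio of Fasn to Acly went from 0.24 ± 0.36 to -0.99 ± 0.14 (SD, n = 5; exact permutation p = 0.0079, adjusted over the 6 pairs 0.024). Fasn also fell 1.79-fold more than Acaca, from a log2 ratio of 2.21 ± 0.23 to 1.37 ± 0.22 (SD, n = 5; exact permutation p = 0.0079, adjusted 0.024). In both pairs the groups did not overlap. Acaca fell 1.31-fold more than Acly, from a log2 ratio of -1.97 ± 0.18 to -2.36 ± 0.25 (SD, n = 5; exact permutation p = 0.024, adjusted 0.048). The call for Acaca against Acly was lost when control replicate 2, 4, 5 or 6, or dehydrated replicate 2, 5 or 6, was left out, with adjusted exact permutation p up to 0.095.

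Differences between Srebf1 and the enzymes did not pass this test with all libraries. The log2 ratio of Srebf1 to Fasn went from -1.21 ± 0.63 to -0.51 ± 0.18 (SD, n = 5; exact permutation p = 0.040, adjusted 0.057). Without control replicate 5, where Srebf1 was highest and Fasn lowest of the controls, the difference was 0.93 (adjusted exact permutation p = 0.016). Without any other single library this pair did not pass (adjusted exact permutation p = 0.076 to 0.124). The log2 ratio of Srebf1 to Acly went from -0.97 ± 0.43 to -1.50 ± 0.31 (SD, n = 5; exact permutation p = 0.048, adjusted 0.057). It passed without dehydrated replicate 4, with a difference of -0.65 (adjusted exact permutation p = 0.032). It did not pass without any other single library (adjusted exact permutation p = 0.071 to 0.124). The log2 ratio of Srebf1 to Acaca went from 1.00 ± 0.42 to 0.86 ± 0.28 (SD, n = 5), a difference of -0.14 (exact permutation p = 0.587, adjusted 0.587). Without both libraries numbered 6 the differences were -1.30 for Fasn to Acly and -0.97 for Fasn to Acaca. With 4 kidneys a group the smallest exact permutation p is 0.0286, and the adjusted p of both pairs was 0.086.

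**Figure D3:**
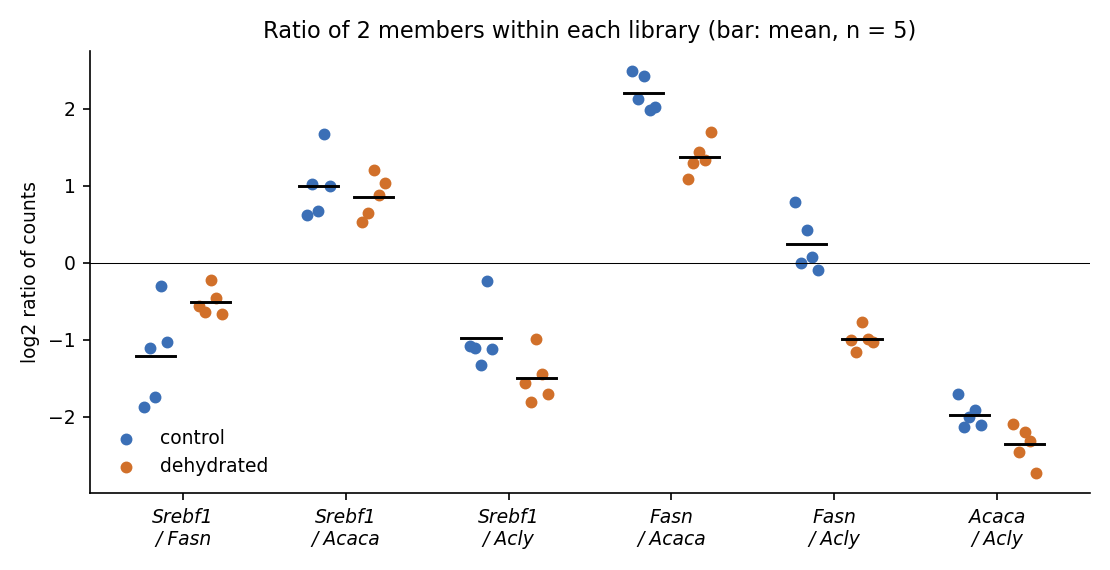
Log2 ratio of the counts of 2 genes within each library for the 6 pairs, with a point per kidney and the group mean as a bar. The groups do not overlap for Fasn to Acaca and Fasn to Acly.

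Per kilobase of exon, Acly was the most abundant of the 4 in both groups, at 46.9 ± 8.25 RPKM without and 32.4 ± 1.80 RPKM with dehydration (SD, n = 5), and it was above each of the other 3 genes in every kidney, although the control ranges of Acly and Fasn overlapped. Acaca was the lowest, at 7.72 ± 2.02 and 4.06 ± 0.613 RPKM (SD, n = 5), below the other 3 in every kidney. Fasn and Srebf1 lay between them, and the order of their means differed between the groups. The change in their ratio did not pass the test above (adjusted exact permutation p = 0.057). In control kidneys Fasn had 27.7 ± 11.8 RPKM and Srebf1 23.4 ± 4.54 RPKM (SD, n = 5), their ranges overlapped, and Srebf1 was the higher in 2 of 5 kidneys. In dehydrated kidneys Srebf1 had 11.3 ± 2.06 RPKM and Fasn 7.73 ± 0.393 RPKM (SD, n = 5), and Srebf1 was the higher in 5 of 5. Summed exon length counts exons that a kidney transcript may lack, so levels per kilobase depend on the annotation.

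Control kidneys ordered the enzymes in nearly the same way. Srebf1 differed from Fasn and Acaca only in the place of replicate 5, so the contrast rests on 1 kidney. Fasn and Acaca were highest in replicate 2, then in replicates 4, 3, 6 and 5, and Acly had the same order except that replicate 4 stood above replicate 2. For Acaca, replicates 6 and 5 had 42.18 and 42.14 CPM, a gap within counting error, so the order of these kidneys is not resolved. Srebf1 was instead highest in replicate 5, followed by replicates 2, 4, 3 and 6. Replicate 5 was the lowest kidney for Fasn and Acly, and level with replicate 6 as the lowest for Acaca. In dehydrated kidneys Srebf1 and Fasn were both highest in replicate 4, where Acly was lowest. Correlations between these genes were not tested.

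**Figure D4:**
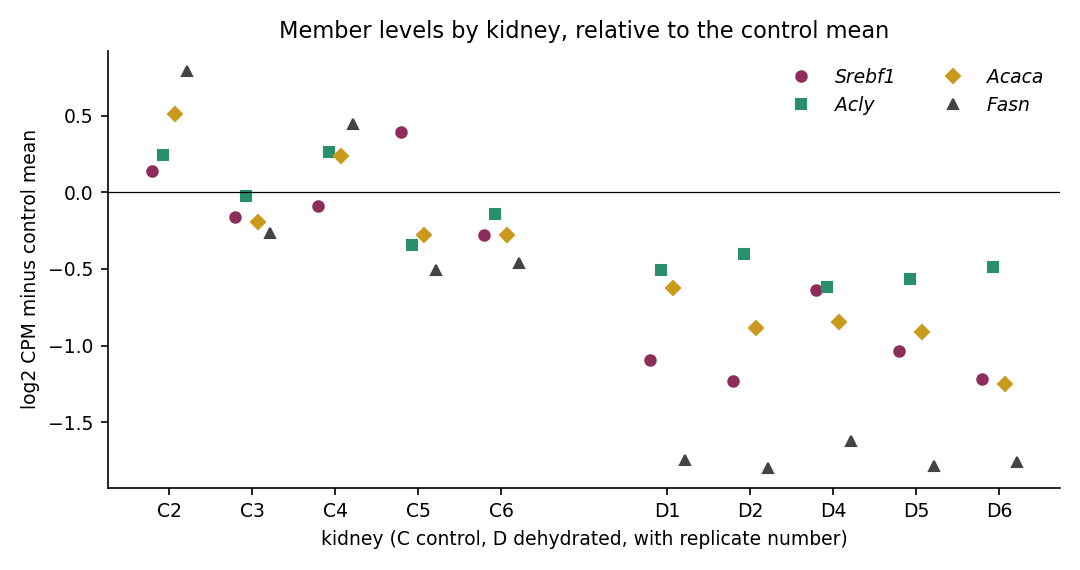
Log2 CPM of each gene in each kidney minus its mean over the control kidneys (C control, D dehydrated, with replicate numbers, which carry no order). The 3 enzymes are above their control mean in control replicates 2 and 4, Srebf1 is highest in control replicate 5, and Fasn lies lowest in every dehydrated kidney.

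As a description of likeness, Pearson's r of log2 CPM over the 10 libraries was computed between each gene and the other 15046 tested genes, with no test, since r then largely reflects the group difference and all points share library and scaling. Fasn was the 4th most like gene for Acaca and the 4th for Acly, and Acaca and Acly were 5th and 8th for Fasn. Srebf1 came 198th for Fasn, 221st for Acaca and 986th for Acly. After group means were removed, Acaca and Acly ranked 28th and 33rd for Fasn (r = 0.85 for each), while Srebf1 ranked 5587th (r = 0.12). These values rest mostly on the control kidneys, where the SD of log2 CPM of Fasn was 0.59, against 0.071 in dehydrated kidneys. Among the controls, replicate 5 was highest for Srebf1 and lowest for Fasn. The gene most like Acaca was ENSRNOG00000014656 (r = 0.98), which fell from 3.27 ± 1.81 to 0.727 ± 0.382 CPM (SD, n = 5; log2 fold change -2.16, edgeR adjusted p = 0.0060). The gene most like Fasn was ENSRNOG00000002339 (r = 0.98), which fell from 18.9 ± 1.27 to 13.98 ± 0.484 CPM (SD, n = 5; log2 fold change -0.44, edgeR adjusted p = 0.0011).

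The spread between animals is described here for each gene. The SD of log2 CPM of Fasn was 0.59 in control and 0.071 in dehydrated kidneys, a ratio of 8.22, and 13 of the 9600 genes averaging 10 CPM or more, Fasn included, had a ratio as high. For Acly the SDs were 0.26 and 0.080, for Acaca 0.36 and 0.22 and for Srebf1 0.27 and 0.24, against medians of 0.105 in each group over the 9600 genes. A test chosen after these values were seen compared the mean absolute deviation from the group median. It did not pass for any of the 4 genes after adjustment over them (exact permutation p = 0.048 for Fasn, adjusted 0.175, and p = 0.087 for Acly, adjusted 0.175). Without control replicate 3, 5 or 6 the test passed for Fasn (adjusted exact permutation p = 0.016, 0.032 and 0.016) and for Acly (the same 3 values). Without control replicate 2 or 4 it did not pass for Fasn (adjusted exact permutation p = 0.095) or Acly (0.222). Nor did it pass for either gene without any single dehydrated library (adjusted exact permutation p = 0.254 to 0.302). A group of 5 always holds a deviation of 0 at its own median and a group of 4 need not, so these tests differ by construction, and no call on spread is made. The control SD of each of the 4 genes was above that of at least 94.8% of the 9600 genes.

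**Figure D5:**
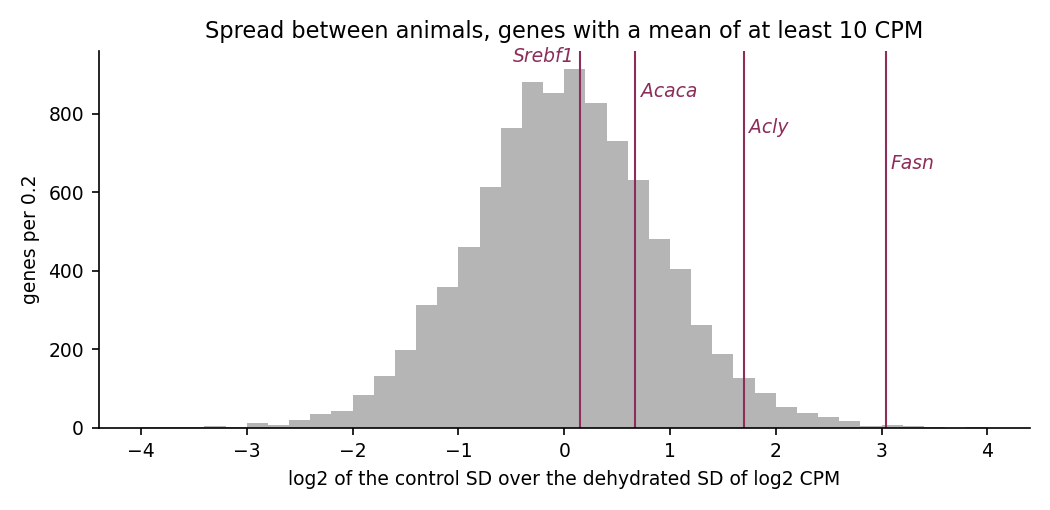
Distribution over 9600 genes of the log2 ratio of the control SD to the dehydrated SD of log2 CPM, with lines at the 4 genes. Srebf1 lies near the middle (ratio 1.11) and Fasn at the right end (ratio 8.22).

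The 4 genes lie far apart on chromosome 10, in the order Srebf1, Acaca, Acly, Fasn, which is also their order in GRCr8. Gaps of 24.9, 16.7 and 21.5 Mb separate them, with 386, 203 and 321 tested genes starting in between. The nearest tested gene on each side was measured for each, 8 genes in all. Of these 0 were called by edgeR, and DESeq2 and limma voom also called 0. Over all tested genes edgeR called 8.47%, so 0 of 8 genes does not set the neighbours apart. An unadjusted edgeR p below 0.05 was found for 2 of the 8 and for 3213 of all 15047 tested genes. Their log2 fold changes ran from -0.30 to 0.16. The gene 2701 bp from Fasn on its higher-coordinate side, on the same strand, went from 7.83 ± 0.816 to 6.36 ± 0.871 CPM (SD, n = 5; log2 fold change -0.30, edgeR adjusted p = 0.125). A plus-strand gene overlaps the 3′ end of Srebf1 by 588 bp, and it went from 26.8 ± 2.29 to 25.0 ± 2.47 CPM (SD, n = 5; log2 fold change -0.10, edgeR adjusted p = 0.535). Fragments were counted by strand, so those of the overlap were assigned to the gene of their own strand. On chromosome 10 as a whole, 44 of 1350 tested genes (3.26%) were called lower, against 3.77% of all tested genes.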

How the data were processed

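RNA of 10 whole kidneys, 5 control and 5 dehydrated, was analysed from counts per Ensembl gene that the authors deposited. They were made with featureCounts 1.6.2 from trimmed, Rsubread-aligned read pairs, counted on the reverse strand (setting 2) over Ensembl release 103 of Rnor 6.0, per the file headers; the sources used here do not give the aligner's settings. The authors' deposited table of their own comparison holds log2 fold changes with SE and p-values, and the submitters' processing notes name DESeq2. Its 10 columns of per-library values were not used, since the names of those numbered 6 could not be tied to a sample title.

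Groups follow the sample titles. The members, lists and tests were chosen with earlier results of these data known. Here, edgeR 4.0.16 in R 4.3.3 (glmQLFit, glmQLFTest, TMM scaling, filterByExpr with minimum count 10 and total 15) was fitted to all genes without covariates, which left 15047 of 21311 genes with any count. Benjamini-Hochberg adjusted p below 0.05 was called. The SE is the absolute log2 fold change divided by the square root of F, and log2 CPM used a prior count of 2. The code was tested on simulated data. For ratios between genes, all 252 assignments of libraries to groups were enumerated in an exact two-sided permutation test. Replicates are separate animals; chi-square per degree of freedom between libraries of a group was 13.3 to 32.0, so no libraries agreed within sampling noise, and the spread between animals limits the precision. Alternatives were DESeq2 1.42.0, limma 3.58.1 (voom), other scalings, no filter, each library left out, the libraries numbered 6 left out or exchanged, and a replicate block. Named genes were the 4 members, the gene with the highest r to each member (of these, the 2 highest are printed) and the nearest tested genes on the chromosome. Planned lists of pathway genes, regulators and cell type markers were not analysed, because the reference table (GRCr8) pairs 0 Ensembl identifiers with symbols. Promoter sequences are from RefSeq (GRCr8), which matched 2 of the 4 members.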

Additional observations from a re-analysis of the deposited data

Results flagged for a closer look

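Srebf1 in dehydrated replicate 4 was at 65.7 CPM, against 43.4 to 49.8 CPM in the rest of its group. The gap to the nearest kidney was 0.713 of the group's range. Among 8 sets of 5 values this was the only kidney flagged, and chance gives one in about 1 of 20 sets. For Fasn the same kidney stood nearly as far apart relative to the range, at 76.8 CPM against 67.9 to 70.5 CPM, and was not flagged. Without dehydrated replicate 4 the log2 fold change of Srebf1 was -1.17 (edgeR adjusted p = 0.00014).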

How the results depend on the processing

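Each of the 4 genes stayed lower and called under the 17 alternatives that leave titles as they are, where the log2 fold change was -1.17 to -0.94 for Srebf1, -1.96 to -1.60 for Fasn, -1.02 to -0.78 for Acaca and -0.61 to -0.46 for Acly. Their highest edgeR adjusted p was 0.021. With both libraries numbered 6 exchanged, which mixes the titled groups by construction, the values were -0.72, -1.36, -0.61 and -0.40 (edgeR adjusted p of 0.386, 0.363, 0.425 and 0.387). Then 0 of the 4 genes were called by edgeR, DESeq2 or limma, with 4 at an unadjusted edgeR p below 0.05. Over all 15047 genes edgeR called 0 (1654 at an unadjusted p below 0.05) and limma 0. DESeq2, run on all 21311 genes with any count, called 65. For the exchange, limma and DESeq2 were added after the data were seen.

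With each library left out, the difference in log2 ratio ran from 0.53 to 0.93 for Srebf1 to Fasn, -0.23 to 0.029 for Srebf1 to Acaca (above 0 without control replicate 5), -0.65 to -0.34 for Srebf1 to Acly and -0.46 to -0.29 for Acaca to Acly. Fasn to Acaca (-0.92 to -0.77) and Fasn to Acly (-1.31 to -1.09) kept their calls in these fits. Without both libraries numbered 6 the differences were -0.97 for Fasn to Acaca, -1.30 for Fasn to Acly and -0.33 for Acaca to Acly, and with both exchanged -0.71, -0.85 and -0.14, none called; the smaller groups limit p by construction in the first case. The deviation in spread, added after the data were seen, ran from -0.11 to 0.034 for Srebf1 (above 0 without control replicate 5), and from -0.51 to -0.24 for Fasn.

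With the replicate block all 4 genes were called, at -1.07 for Srebf1, -1.81 for Fasn, -1.02 for Acaca and -0.52 for Acly (edgeR adjusted p up to 0.021); it rests on 4 pairs. The numbers share no stated source, deviations from group means correlated at -0.054 to 0.139 in libraries of equal number, above 0.1 in 1 of 4 pairs. Genes called overall fell from 1275 to 763 under this block. Genes called without a single library numbered 879 to 1382.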
